A study of Mus musculus with 2 samples.

Results

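Fibro-adipogenic progenitors (FAPs) that the deposited annotation calls adipogenic were examined in regenerating mouse tibialis anterior muscle. The members were the barcodes with that annotation in each of 2 single-cell libraries, 31 at day 2 and 237 at day 7 after an injection of notexin, a venom phospholipase that destroys myofibres. Of these 268 barcodes, 262 passed the limits on detected genes, transcripts and mitochondrial share, 30 at day 2 and 232 at day 7, among 6374 kept cells with a cell type and 1020 kept FAPs. They were compared with the FAPs annotated as pro-remodeling (138 cells at day 2 and 495 at day 7) and as stem (47 and 78 cells). Both libraries came from notexin-injured muscle of C57Bl/6 mice, for which the labels name no transgene or other treatment, and each was made from 1 mouse with the 10x Genomics 3' v3 kit, which captures the 3' ends of polyadenylated transcripts. The labels give an age of 7 months and female sex for both mice, whereas the deposited cell table gives 4 months for day 2, 7 months for day 7 and male sex. The counts went with male tissue: 4 Y-linked genes summed to 6575 counts at day 2 and 4856 at day 7 over all called barcodes, against 5 and 1 counts of Xist.

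FAPs are mesenchymal cells of the muscle interstitium that carry the PDGF receptor alpha (Pdgfra). After injury they expand, secrete matrix, chemokines and growth factors that act on muscle stem cells and immune cells, and are later partly cleared. They are also the source of fibroblasts and of adipocytes in diseased muscle, which gives them their name, and the adipocyte programme is switched on by the nuclear receptor Pparg together with Cebpa.

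With 1 library at each time point, no difference had a replicate check and no p-value was computed. Levels are counts summed over the cells of one annotation, per 1000000 counts of those cells (CPM), and the parentheses or brackets after a level, ratio or share hold its 95% interval, which covers counting error only. The annotation was made from expression, so that differences between annotations describe it and do not test it. The 2 libraries held 4836 and 4889 called barcodes and 41123913 and 32356088 unique molecular identifier (UMI) counts, and shared 4 barcodes, none of them a member. The adipogenic FAPs were shallower than the other FAPs, with a median of 11650 UMIs a cell at day 2 and 5181 at day 7, against 26218 and 10156 in pro-remodeling and 23623 and 6717 in stem FAPs.

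The 5 markers of the label were read first, which describes the label and does not test it. Pdgfra was present at like levels in all 3 FAP annotations, whereas Gdf10, Sfrp4, Wisp2 and Apod were higher in adipogenic than in pro-remodeling FAPs at day 7. Of 23 annotated cell types with at least 20 kept cells at day 7, the adipogenic FAPs had the highest summed level of each of these 4 genes. In stem FAPs, Sfrp4 stood at the same level as in adipogenic FAPs, so that Gdf10, Wisp2 and Apod were the markers that set the label apart from both neighbours.

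Gdf10 encodes a secreted member of the TGF-beta and BMP family (ENSMUSG00000021943, chromosome 14 from 33923587 to 33937983, GRCm38). Its level in adipogenic FAPs was 99 (84.4 to 115) CPM at day 7, against 11.5 (8.96 to 14.6) in pro-remodeling and 26.1 (14.9 to 42.4) in stem FAPs, a ratio of 8.57-fold (6.42 to 11.6) and 3.79-fold (2.27 to 6.79). At day 2 the separation from pro-remodeling FAPs was wider, 345 (287 to 412) against 4.28 (2.39 to 7.05) CPM. Those 123 day 2 counts lay in 12 of 30 cells, and 2 cells held 52.8% of them.

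Wisp2, also called Ccn5, encodes a secreted CCN protein (ENSMUSG00000027656, chromosome 2 from 163820861 to 163833146). It showed the largest ratio to pro-remodeling FAPs of all genes ranked, 192 (171 to 214) against 12.4 (9.71 to 15.6) CPM, or 15.5-fold (12 to 20.3), and was 2.87-fold (2.07 to 4.08) higher than in stem FAPs. The latter ratio lay within 2-fold when cells were weighted equally (log2 ratio 0.82) and without the cells that held markers of another class (0.89). Sfrp4 encodes a secreted frizzled-related protein that binds Wnt ligands (ENSMUSG00000021319, chromosome 13 from 19623104 to 19632994). Its level was 286 (261 to 313) CPM in adipogenic, 29.7 (25.5 to 34.5) in pro-remodeling and 279 (239 to 324) in stem FAPs at day 7, a ratio of 9.63-fold (8.08 to 11.5) to the former and 1.03-fold (0.859 to 1.23) to the latter. At day 2 both genes rested on few members, since the 26 counts of Sfrp4 and the 11 counts of Wisp2 lay in 2 cells each.

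Apod encodes apolipoprotein D, a lipocalin that binds small lipids (ENSMUSG00000022548, chromosome 16 from 31296192 to 31314808). It was the most abundant of the 5 markers, with 5762 (5646 to 5879) CPM in adipogenic, 2269 (2230.4 to 2307) in pro-remodeling and 1389 (1298 to 1486) in stem FAPs at day 7, and only 275 (223 to 335) in adipogenic FAPs at day 2. Apod was not a FAP gene alone, since the 41 neural cells of the day 7 library held 4359 CPM. Among cell types with at least 20 kept cells, this was the next highest level after the adipogenic FAPs. Pdgfra (ENSMUSG00000029231, chromosome 5 from 75152292 to 75198215) differed by less than 2-fold, 515 (481 to 551) CPM against 445 (428 to 462) and 333 (289 to 382).

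**Figure D1:**
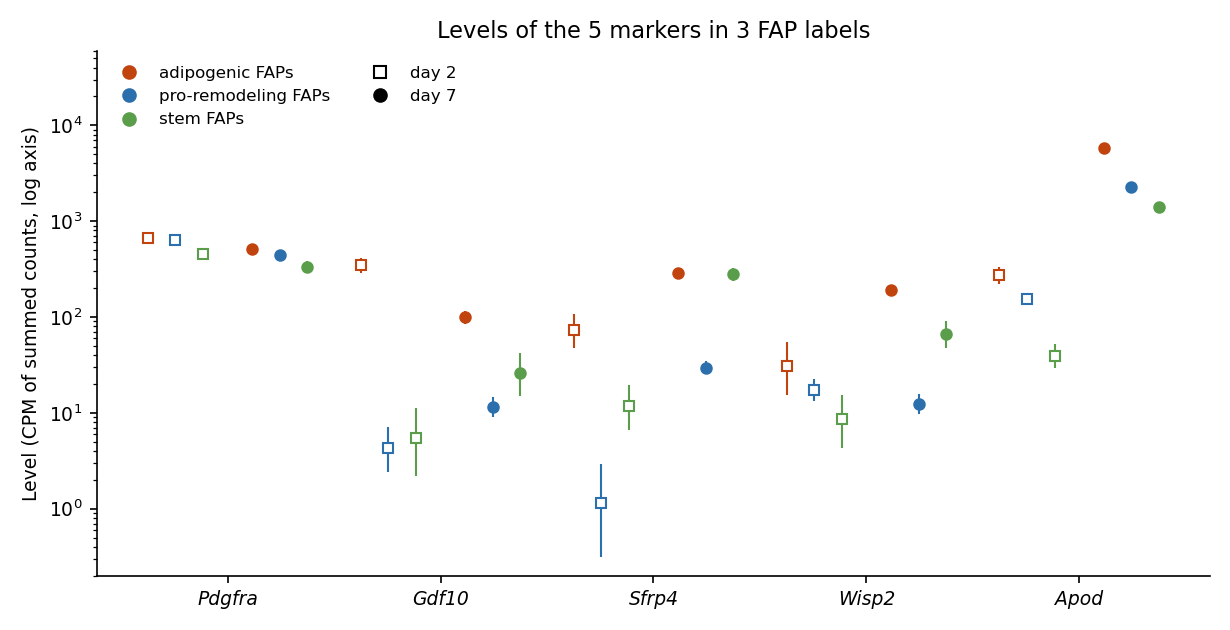
Levels of the 5 markers of the label (CPM, log axis), in adipogenic, pro-remodeling and stem FAPs, at day 2 (squares) and day 7 (circles); bars are 95% counting intervals. The 3 annotations lie together for Pdgfra, and the adipogenic FAPs lie above pro-remodeling FAPs for Gdf10, Sfrp4, Wisp2 and Apod at day 7.

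At equal depth, 3 of the 5 markers were seen in a minority of cells. After thinning each cell to 3000 UMIs, which left out 45 shallower members at day 7, Gdf10 was detected in 15.5% (10.6 to 21.5) of 187 adipogenic FAPs, Sfrp4 in 20.3% (14.8 to 26.8) and Wisp2 in 15% (10.2 to 20.9). In pro-remodeling FAPs the same genes were detected in 2.63% (1.41 to 4.45), 5.25% (3.46 to 7.6) and 2.83% (1.55 to 4.7) of 495 cells. Among 142 capillary endothelial cells, which should lack them and measure free RNA, Gdf10 and Sfrp4 were detected in 0 cells and Wisp2 in 1. At least 1 of the 3 genes was seen in 72 of 187 adipogenic FAPs, 38.5% (31.5 to 45.9), in 50 of 495 pro-remodeling FAPs, 10.1% (7.59 to 13.1), and in 38 of 67 stem FAPs, 56.7% (44 to 68.8). Apod and Pdgfra were broad, in 90.9% (85.8 to 94.6) and 71.7% (64.6 to 78) of the thinned adipogenic FAPs and in 89.5% (86.5 to 92.1) and 70.7% (66.5 to 74.7) of the pro-remodeling FAPs. The adipogenic FAPs held 20.2% of all FAP UMIs at day 7, but 73.5% (69 to 77.6) of the FAP counts of Wisp2, 66% (59.7 to 71.9) of those of Gdf10, 57.6% (54.2 to 61.1) of those of Sfrp4 and 40% (39.4 to 40.7) of those of Apod, against 23.1% (21.7 to 24.5) for Pdgfra.

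The promoters of 3 genes that were higher in adipogenic than in pro-remodeling FAPs are shown for their contrast in composition, as the 250 bases before the RefSeq start on the gene's strand in GRCm38.p6. They are Gdf10 (chr14:33923337-33923586, plus strand), Apod (chr16:31314809-31315058, minus strand) and C3 (chr17:57228137-57228386, minus strand), the last encoding the central complement component described further on. Capitals mark the only match found among the motifs TATAAA (the core promoter box of that name), CCAAT (the box of that name), TGANTCA (the recognition sequence of AP-1) and AGGTCA (that of nuclear receptors), searched on both strands.
Gdf10: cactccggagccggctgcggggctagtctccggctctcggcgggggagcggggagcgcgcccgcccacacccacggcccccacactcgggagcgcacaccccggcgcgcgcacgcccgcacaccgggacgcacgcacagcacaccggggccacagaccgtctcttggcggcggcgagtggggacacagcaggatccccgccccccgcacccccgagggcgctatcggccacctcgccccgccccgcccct
Apod: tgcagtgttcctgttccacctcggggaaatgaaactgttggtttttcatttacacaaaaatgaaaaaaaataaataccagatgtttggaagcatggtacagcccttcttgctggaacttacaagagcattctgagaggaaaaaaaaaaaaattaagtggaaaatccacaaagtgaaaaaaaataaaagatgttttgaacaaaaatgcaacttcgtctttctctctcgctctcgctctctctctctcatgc
C3: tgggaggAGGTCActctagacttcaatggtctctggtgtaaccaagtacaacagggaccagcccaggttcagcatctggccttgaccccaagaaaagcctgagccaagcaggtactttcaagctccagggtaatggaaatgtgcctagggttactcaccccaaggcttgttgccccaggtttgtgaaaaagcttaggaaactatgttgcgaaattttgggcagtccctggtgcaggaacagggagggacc
The Gdf10 window was 78.8% G and C with 35 CG dinucleotides, the Apod window 36.4% with 4 and the C3 window 52% with 1, against a median of 52.4% and 6 over all promoters of this length. AGGTCA began 243 bases before the C3 start; of 32851 promoters, 14% hold it, and the shares for TATAAA, for CCAAT and for TGANTCA are 12.4%, 33.8% and 6.75%. Of 7 symbols asked, 4 had an entry, and those without one were Sfrp4, Wisp2 and C4b.

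The share of FAPs annotated as adipogenic was 14% (9.62 to 19.3; 30 of 215) at day 2 and 28.8% (25.7 to 32.1; 232 of 805) at day 7. The pro-remodeling share was 64.2% (57.4 to 70.6) and 61.5% (58 to 64.9), and the stem share was 21.9% (16.5 to 28) at day 2 against 9.69% (7.73 to 11.9) at day 7. Without cells that held markers of another class, the adipogenic share was 19.6% (12.6 to 28.4) at day 2 and 31.1% (27.4 to 35) at day 7. That cut was on raw counts and was not scaled to depth. At day 2 it left out 72 of 138 pro-remodeling and 27 of 47 stem FAPs, against 9 of 30 adipogenic FAPs. The part of depth in this shift was not tested. The libraries differed in mouse, depth and, by the deposited cell table, age, which cannot be told apart from time. As a share of UMIs rather than cells, the adipogenic FAPs made up 6.94% of the FAP counts at day 2 and 20.2% at day 7.

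The name of the label concerns fat, so the adipocyte programme was read next. The adipogenic FAPs had no count of some genes that define mature adipocytes. Of 34 adipocyte genes, 10 had no count in the 232 members at day 7, including the adipokine genes Adipoq, Lep, Retn and Cfd, the lipid droplet genes Plin4, Cidec and Cidea, and the brown fat uncoupling gene Ucp1. At 0 of 1646594 UMIs, a gene's level may be up to 1.82 CPM. Pparg, the receptor that drives adipocyte formation, had 5 counts, 3.04 (0.986 to 7.09) CPM, and the lipid droplet coat gene Plin1 had 1. At least 1 thinned count of Pparg, Adipoq, Plin1 or Cidec was seen in 2 of 187 adipogenic FAPs, 1.07% (0.13 to 3.81), 3 of 495 pro-remodeling FAPs, 0.606% (0.125 to 1.76), and 1 of 67 stem FAPs, 1.49% (0.0378 to 8.04). In capillary endothelial cells it was 27 of 142, 19% (12.9 to 26.4). At day 2, 13 of the 34 genes had no count in the members.

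The fat genes that were present were shared with other FAPs. Lpl, the lipase that frees fatty acids from lipoproteins, stood at 927 (881 to 975) CPM in adipogenic, 1212 (1184 to 1241) in pro-remodeling and 574 (516 to 637) in stem FAPs. Fabp4, the adipocyte fatty acid carrier that capillary endothelium also uses, stood at 36.4 (27.8 to 46.9) CPM in the members and 40.9 in pro-remodeling FAPs, and at 18031 CPM in capillary endothelial cells. Of the 15 adipocyte genes with enough counts for a ratio to pro-remodeling FAPs, 14 lay within 2-fold, none was over 2-fold higher and 1 was over 2-fold lower, where 1.34% of all genes compared were over 2-fold higher and 1.77% lower. That gene was Hsd11b1, which activates glucocorticoids in fat and in fibroblasts, at 113 against 238 CPM (2.11-fold [1.81 to 2.47] lower); with median-of-ratios size factors it too lay within 2-fold, at a log2 ratio of -0.99. Against stem FAPs, Angptl4, an inhibitor of Lpl, was 4.35-fold (2.72 to 7.36) higher in the adipogenic FAPs and G0s2, an inhibitor of lipolysis, 2.12-fold (1.34 to 3.5) higher, 2 of the 8 genes compared, against 4.25% of all genes. The G0s2 difference lay within 2-fold without the 2 cells with most of its counts in each group (log2 ratio 0.84).

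Among the regulators of preadipocytes, 1 gene was over 2-fold higher and 1 over 2-fold lower than in pro-remodeling FAPs out of 14 compared, against 1.34% and 1.77% of all genes. Nr2f2, which encodes the orphan nuclear receptor COUP-TFII, stood at 86.2 (72.6 to 102) CPM in adipogenic, 27.5 (23.4 to 32.1) in pro-remodeling and 17.9 (8.96 to 32.1) in stem FAPs, 3.14-fold (2.49 to 3.95) and 4.81-fold (2.61 to 9.85) higher. Against stem FAPs, 5 of these regulators were compared, with a median log2 ratio of -0.88. Nr2f2 was the 1 over 2-fold higher, and the 1 over 2-fold lower was Ebf2, a transcription factor of preadipocytes, 2.1-fold (1.71 to 2.58) lower. Dlk1, or preadipocyte factor 1, which holds back adipocyte formation, was 3.32-fold (2.52 to 4.46) lower than in pro-remodeling FAPs, at 33.4 against 111 CPM. Cebpa was low in every FAP annotation, at 21.9, 26 and 14.7 CPM, and Klf4, Ebf1 and Cebpb lay within 2-fold of pro-remodeling FAPs.

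**Figure D2:**
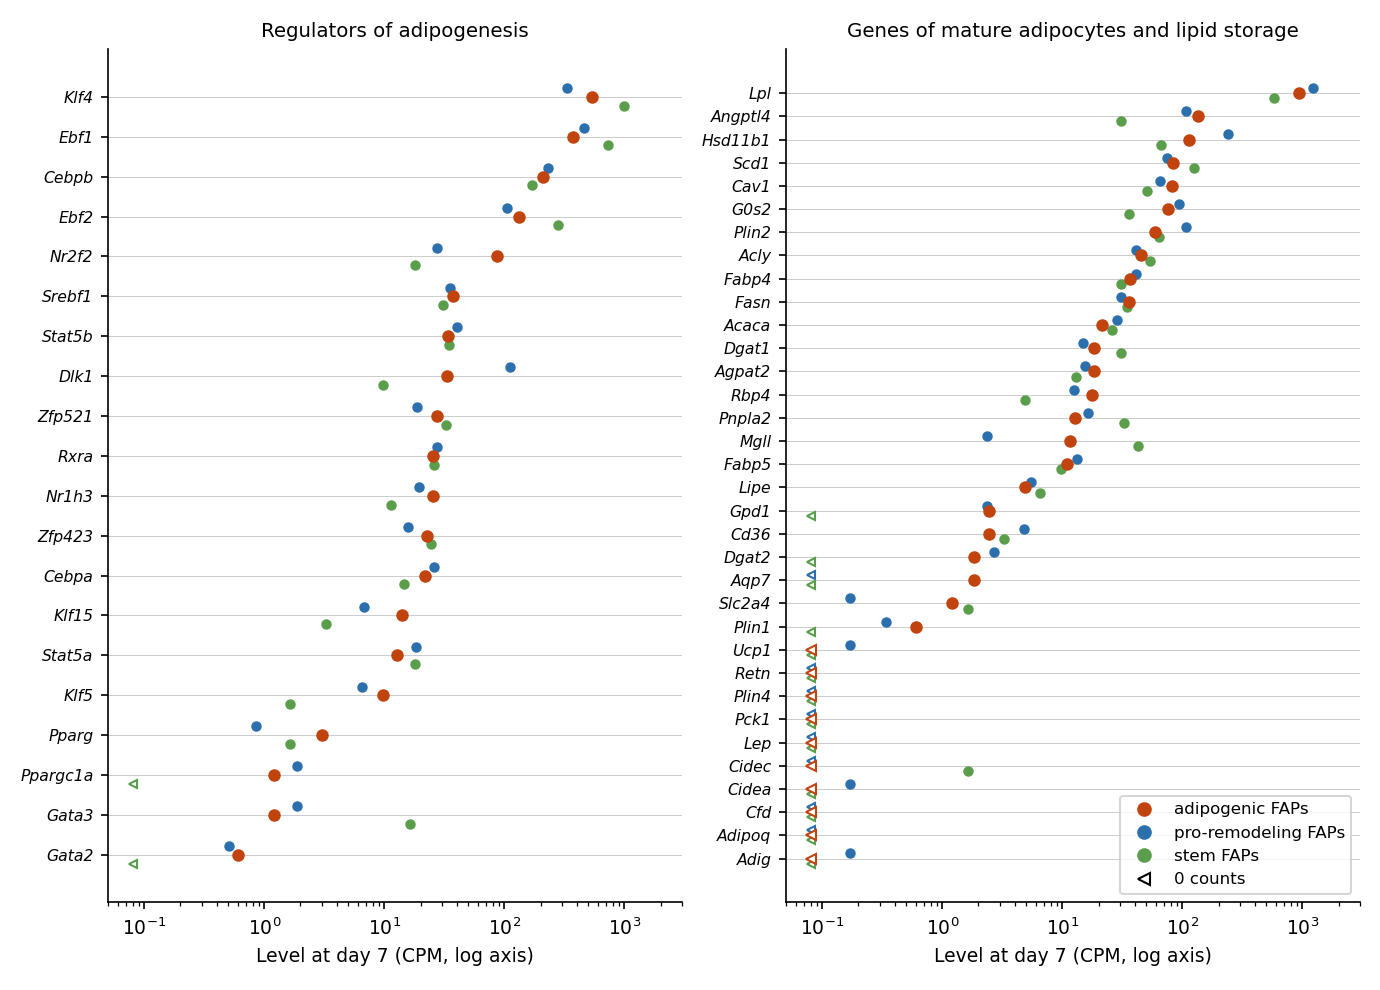
Day 7 levels (CPM, log axis) of 20 preadipocyte regulators and 34 adipocyte genes in adipogenic, pro-remodeling and stem FAPs; open triangles mark genes with 0 counts. The 3 annotations lie close together for most genes, and 10 adipocyte genes, Adipoq among them, were at 0 in the adipogenic FAPs.

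Set against pro-remodeling FAPs of the same library, the adipogenic FAPs of day 7 held more transcripts of several complement and Wnt-binding genes and fewer of most collagen and basement membrane genes. Over all 7461 genes with at least 100 counts in the 2 groups, 232 (3.11%) differed by more than 2-fold, 100 higher (1.34%) and 132 lower (1.77%), and the median log2 ratio was -0.08. With median-of-ratios size factors in place of total counts the split was 115 higher and 100 lower. Of the 61 genes named in the text that were past 2-fold in this comparison, 36 were past it under each of 9 alternative treatments of the counts. Among these was leaving out cycling cells, which removed no cell. Among genes seen in at least 20% of the cells of the higher group, those with the largest ratios were Wisp2, Serpina3n, Sfrp4, Gdf10, Cadm3 and Sned1. Serpina3n, an acute-phase serine protease inhibitor (ENSMUSG00000021091, chromosome 12 from 104406729 to 104414329), was at 773 (731 to 817) against 69.9 (63.4 to 77) CPM, 11.1-fold (9.88 to 12.4) higher. The adhesion molecule gene Cadm3 was 7.94-fold (5.8 to 11) higher and the matrix protein gene Sned1 6.5-fold (5.82 to 7.27) higher. By the same rule, the other end held Lrrc15, a membrane protein of activated fibroblasts, at 8.5 against 52.3 CPM (6.15-fold [3.61 to 11.4] lower), and Tenm4, Hlf, Adamts17, Fam212a and Fars2, which rested on 9 to 11 counts each in the members.

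Genes of the complement list were higher or within 2-fold. Of its 17 measured genes, 11 had enough counts for a ratio, 4 were over 2-fold higher, none lower, and the median log2 ratio was 0.67; with the same minimum of 100 counts, 4 or 5 genes were higher under each alternative. C3, the component on which all activation routes converge, stood at 2573 (2496 to 2651) CPM in adipogenic and 761 (739 to 784) in pro-remodeling FAPs, 3.38-fold (3.24 to 3.53) higher. C4b, of the classical route, was 5.97-fold (5.26 to 6.78) higher, and C2, its partner in the C3 convertase, 2.76-fold (2.41 to 3.17) higher. Serping1, which inhibits C1, was 1.59-fold (1.54 to 1.64) higher, within 2-fold. At equal depth C3 was detected in 75.9% (69.2 to 81.9) of the adipogenic FAPs, 64% (59.6 to 68.3) of the pro-remodeling and 92.5% (83.4 to 97.5) of the stem FAPs. Sfrp4, which like C3 had a similar summed level in both, was detected in 20.3% (14.8 to 26.8) of the adipogenic and 44.8% (32.6 to 57.4) of the stem FAPs.

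Genes that modulate Wnt and BMP signals went the same way in part. Of 11 Wnt-related genes compared, Sfrp1, Sfrp2, Sfrp4 and Wisp2 were over 2-fold higher and none was lower. Sfrp1, another secreted Wnt-binding protein, stood at 359 (331 to 389) CPM, 3.55-fold (3.16 to 3.98) above pro-remodeling FAPs. The Sfrp2 excess, 2.78-fold (2.21 to 3.49), rested on few cells, as 2 members held 55.7% of its 140 counts, and without the 2 highest cells in each group its log2 ratio was 0.61. By that measure 3 Wnt-related genes were higher and 1 lower. In the BMP and TGF-beta list, 3 of 18 genes were over 2-fold higher, Gdf10, the BMP antagonist Nbl1 (2.27-fold [2.09 to 2.46]) and the activin antagonist Fst (2.12-fold [1.81 to 2.48]), and 1 was lower, the ligand Bmp2 (3.99-fold [1.87 to 10.2] lower, on 7 counts in the members). With cells weighted equally, Nbl1 and Fst lay within 2-fold, at log2 ratios of 0.95 and 0.95.

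Of 20 growth factor and binding protein genes compared, 3 were higher and 3 lower by more than 2-fold. Gas6, a ligand of the Axl and Mertk receptors, stood at 459 (427 to 493) against 133 (124 to 143) CPM, 3.45-fold (3.11 to 3.81) higher. Il6 and Fgf7, a cytokine and a fibroblast growth factor for epithelial receptors, were 3.42-fold (2.84 to 4.11) and 2.91-fold (2.17 to 3.9) higher. Lower were pleiotrophin (Ptn, 2.91-fold [2.44 to 3.51]), insulin-like growth factor 2 (Igf2, 2.18-fold [1.92 to 2.48]) and the cartilage intermediate layer protein Cilp (2.22-fold [2.1 to 2.34]), and midkine (Mdk), the partner of Ptn, was 1.69-fold (1.5 to 1.91) lower, within 2-fold. Without the cells that held markers of another class, a cut on raw counts not scaled to depth, Ptn, Igf2 and Cilp all lay within 2-fold. Their log2 ratios were then -0.96, -0.83 and -0.88. After thinning to equal depth Fgf7 lay within 2-fold too (0.80). Outside these groups, Mmp3, a metalloprotease that cleaves matrix, was 5.62-fold (5.2 to 6.07) higher in the adipogenic FAPs; it is in none of the lists and is named for its place in the comparison with stem FAPs.

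Matrix genes were lower as a group, mostly by less than 2-fold. Of all genes compared, which were not matched to the lists for abundance, 16% had an interval wholly below a ratio of 1. Of 18 collagens compared, 17 had such an interval, yet 16 lay within 2-fold. Their median log2 ratio was -0.62, and -0.40 with cells weighted equally. Counting intervals narrow as counts grow, so that abundant genes reach such an interval at smaller differences. Col1a1, the main fibrillar collagen chain, stood at 17758 against 21342 CPM, a difference of 1.2-fold (1.19 to 1.22). The 2 collagens past 2-fold were Col8a1 (3.4-fold [2.87 to 4.05] lower) and Col12a1 (2.25-fold [1.78 to 2.89] lower), and Col14a1 was the exception with an interval above 1 (1.3-fold [1.23 to 1.38] higher). In the basement membrane and elastic matrix list, 18 of 21 genes had an interval below 1, and the laminin chains Lamb1 (2.21-fold [2.05 to 2.39]) and Lama2 (2.08-fold [1.89 to 2.29]) were past 2-fold. Elastin (Eln, 2.72-fold [2.47 to 3.0]) and the fibulin-like gene Efemp1 (3.08-fold [2.7 to 3.5]) were higher. Without cells that held markers of another class, Col12a1, Lamb1 and Lama2 lay within 2-fold, at log2 ratios of -0.80, -0.92 and -0.93, and without its 2 highest cells in each group so did Eln (0.87).

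Of the 13 pro-remodeling list genes compared, 4 were over 2-fold lower in adipogenic FAPs. They were Lrrc15, tenascin C (Tnc, 9.01-fold [5.65 to 15.3], the lowest ratio of all genes compared, seen in 14.5% of pro-remodeling FAPs), osteopontin (Spp1, 2.3-fold [1.82 to 2.95]) and periostin (Postn, 1441 against 3403 CPM, 2.36-fold [2.26 to 2.46]). The 2 that were higher were Sfrp2 and S100a4. Without cells that held markers of another class, Spp1 (-0.08) and Postn (-0.95) lay within 2-fold on the log2 scale, which left Lrrc15 and Tnc. Of the 18 interferon and antigen presentation genes, the interferon-induced Ifit3 (3.66-fold [2.87 to 4.73]), Ifit1 (2.61-fold [2.12 to 3.24]) and Isg15 (2.05-fold [1.79 to 2.35]) were lower, and the other 15 lay within 2-fold. Without cells with other markers Ifit1 (-0.60) and Isg15 (-0.46) were within 2-fold as well. The 12 immediate early genes, which respond quickly to stress, all lay within 2-fold, with a median log2 ratio of 0.00. Of the remaining lists, 1 of 12 genes common to FAPs was over 2-fold higher (Ly6a, 2.11-fold [2.02 to 2.21]) and none lower, and 1 of 10 small proteoglycans was higher (Omd, 2.24-fold [1.47 to 3.37]). Of 13 lipoprotein and sterol genes, Apod and the phospholipid transfer protein gene Pltp (2.63-fold [2.08 to 3.33]) were higher and Hsd11b1 lower, none of 8 retinoid and prostaglandin genes was past 2-fold, and 1 of 6 cell cycle genes was lower. That gene, the cycle inhibitor gene Cdkn1c (2.11-fold [1.98 to 2.26]), lay within 2-fold under 4 of 9 alternatives, among them thinning to equal depth (log2 ratio -0.70). At equal depth Ly6a (0.77), Omd (0.79) and Pltp (0.96) lay within 2-fold on the log2 scale.

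**Figure D3:**
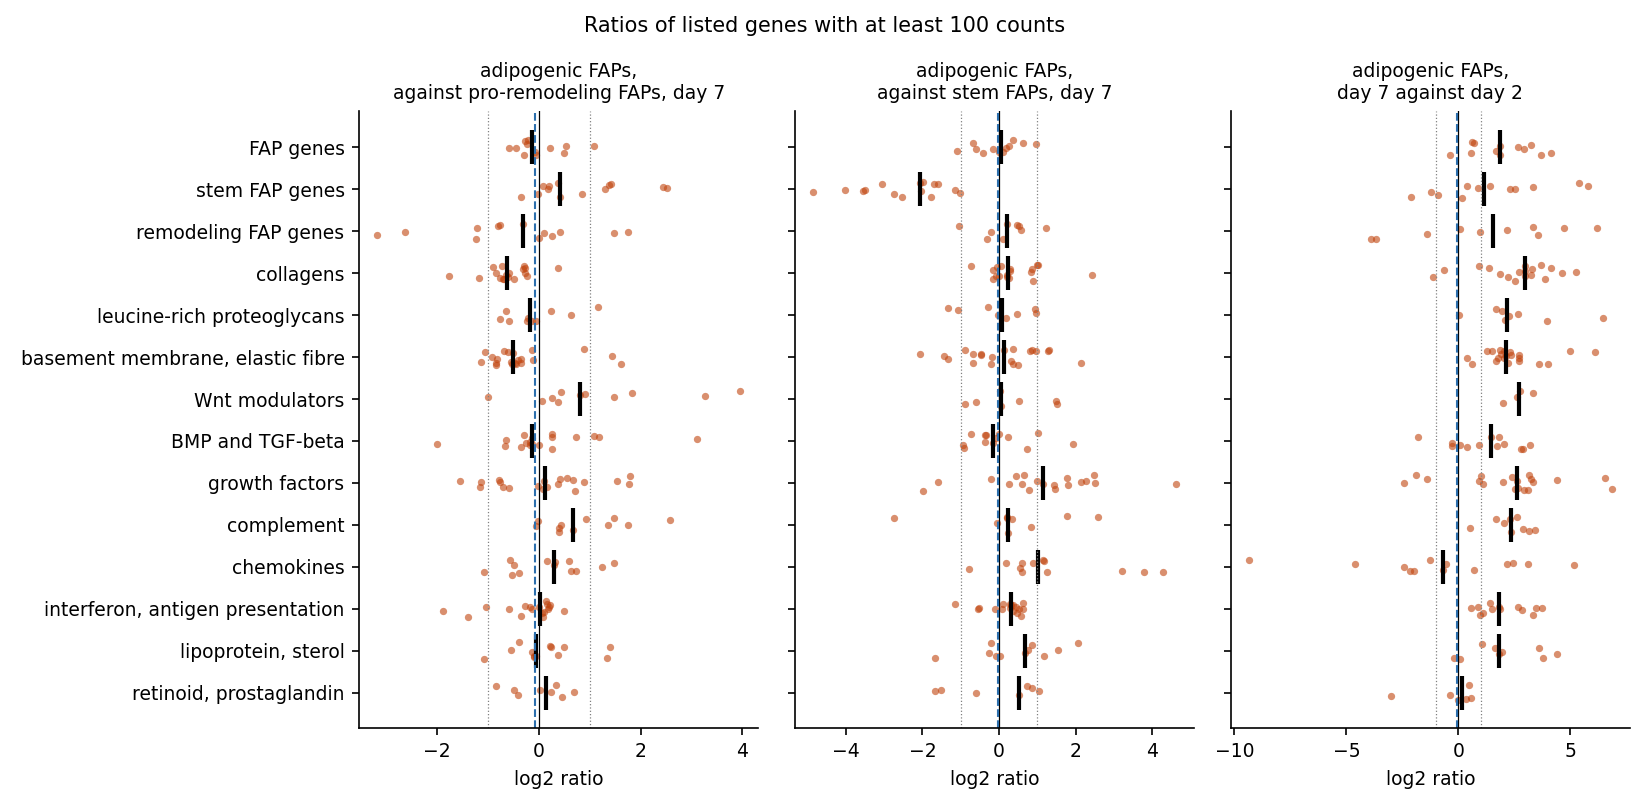
Log2 ratio of adipogenic FAPs to pro-remodeling FAPs at day 7, to stem FAPs at day 7, and of day 7 to day 2, for the genes of 14 lists with at least 100 counts; each dot is a gene, the black bar the list median, the dashed blue line the median of all genes compared and the dotted lines 2-fold. Complement lies above and collagens below the line against pro-remodeling FAPs, stem genes lie below it against stem FAPs, and collagens lie above it at day 7 against day 2.

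Against stem FAPs of day 7, the adipogenic FAPs held more chemokine and growth factor transcripts and fewer of the stem FAP genes. Of 3270 genes compared, 260 (7.95%) differed by more than 2-fold, 139 higher (4.25%) and 121 lower (3.7%), with a median log2 ratio of -0.03. Among genes seen in at least 20% of the cells of the higher group, the largest ratio was that of Cxcl14, a chemokine of tissue-resident stroma (ENSMUSG00000021508, chromosome 13 from 56288643 to 56296551), at 4399 (4299 to 4502) against 225 (189 to 266) CPM, 19.5-fold (16.5 to 23.3) higher. Mmp3 followed at 15.5-fold (11.4 to 21.7), with 1037 against 66.9 CPM. Also among the largest ratios were the GDNF coreceptor Gfra1 (10.3-fold [3.92 to 38.6]), the interferon-induced chemokine Cxcl9 (9.2-fold [5.89 to 15.2]) and the growth factor Clec11a (8.72-fold [4.14 to 22]). Cxcl14 did not separate adipogenic from pro-remodeling FAPs to this degree, since pro-remodeling FAPs held 2900.4 CPM.

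All 15 stem FAP list genes with enough counts were over 2-fold lower in adipogenic FAPs, with a median log2 ratio of -2.06. Over all genes ranked, those furthest down were Efhd1, a mitochondrial calcium-binding protein (28.9-fold [16.4 to 55.7] lower), the semaphorin Sema3c (16.1-fold [12.7 to 20.6]), the annexin Anxa3 (11.8-fold [9.38 to 15]), Sbsn (11.3-fold [7.13 to 18.7]), the cell surface peptidase Dpp4 (11.2-fold [7.63 to 17]) and the CCN protein gene Nov (9.0-fold [6.95 to 11.8]), of which Sbsn and Nov are not in that list. Pi16, a marker of progenitors around vessels, was in between, at 1063 (1014 to 1114) CPM in adipogenic, 195 (184 to 207) in pro-remodeling and 3649.8 (3500.2 to 3804) in stem FAPs. The same order held for Pcolce2, an enhancer of procollagen processing, at 82, 14.3 and 678 CPM. Against pro-remodeling FAPs, 5 of 13 stem list genes were over 2-fold higher in the adipogenic FAPs and none was lower.

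Of 19 growth factor and binding protein genes compared with stem FAPs, 10 were over 2-fold higher in adipogenic FAPs and 2 lower, a median log2 ratio of 1.14. Igf2 (5.69-fold [3.53 to 9.74]), the decoy-like PDGF receptor gene Pdgfrl (5.61-fold [3.85 to 8.48]), Mdk (4.83-fold [3.21 to 7.57]), the binding protein gene Igfbp3 (4.43-fold [2.4 to 9.1]) and Gas6 (3.52-fold [2.79 to 4.49]) were among them. Ptn stood at 80.2 (67.1 to 95.1) CPM against 2 counts in stem FAPs, a ratio of 24.6-fold (6.67 to 205), the largest of all genes compared, and was seen in 18.1% of the members. The 2 lower genes were Igfbp5 (3.98-fold [3.73 to 4.25]) and Igfbp6 (3.01-fold [2.81 to 3.23]). Of 12 chemokine genes compared, 6 were higher and none lower by more than 2-fold, and at equal depth 3 of 9 were higher and 1 lower. Among complement genes, C2 (3.45-fold [2.49 to 4.91]) was higher and the membrane inhibitor Cd55 (6.7-fold [5.37 to 8.41]) was lower, while C3 stood at 2573 against 2650.1 CPM. Col15a1, a collagen of the basement membrane zone, was 5.39-fold (4.3 to 6.82) higher.

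Between day 2 and day 7 most of the matrix, complement, growth factor and interferon genes compared were over 2-fold higher in the adipogenic FAPs at day 7, and the chemokine genes went both ways. Of 2940 genes compared, 1020 (34.7%) differed by more than 2-fold, 551 higher (18.7%) and 469 lower (16%) at day 7, with a median log2 ratio of -0.07. Mouse, library, depth and, by the deposited cell table, age differed with the day and cannot be told apart from it. The day 2 side held 30 cells. Markers of other classes in the members also moved with the day. From day 2 to day 7 the myofibre markers went from 8.42 to 545 CPM, with all 3 genes compared over 2-fold higher. The tenocyte markers went from 362 to 1016 CPM. At day 2 the member with most tenocyte counts held 120 of 129, so that this day 2 level rested mostly on that cell. The macrophage markers went from 463 to 162 CPM and the neutrophil markers from 941 to 21.9. At day 2 the member with most macrophage counts held 116 of 165, and that with most neutrophil counts 314 of 335. Both day 2 levels therefore rested mostly on the highest member. Without cells with 3 or more counts of another class, 723 of 1735 genes differed by more than 2-fold; the part of the myofibre and tenocyte transcripts was not tested. The level of periostin (Postn) was 1441 (1384 to 1500.3) CPM on day 7 against 19.7 (7.9 to 40.5) on day 2, 73.3-fold (35.5 to 183) higher, and that of the tetranectin gene Clec3b 1561 (1502 to 1623) against 28.1 (13.5 to 51.6), 55.6-fold (30.2 to 116) higher. Cilp, the proteoglycan gene Aspn and the fibulin Fbln7 had 3, 2 and 2 counts at day 2, giving ratios of 114-fold (39 to 555), 86.3-fold (23.8 to 714) and 68.1-fold (18.8 to 564). The imprinted noncoding RNA H19 had 0 counts at day 2 and 443 (411 to 476) CPM at day 7, at least 52.6-fold higher against a floor of 3 counts over the day 2 members.

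Collagens were higher at day 7 in 15 of 18 genes compared and lower in 1, with a median log2 ratio of 2.96. Col1a1 went from 1025 (923 to 1136) to 17758 (17556 to 17963) CPM, 17.3-fold (15.6 to 19.3) higher, and Col3a1 was 13-fold (12 to 14.1) higher. Col8a1 was the one that was over 2-fold lower (2.2-fold [1.63 to 2.95]), and without its 2 highest cells in each group it lay within 2-fold (log2 ratio -0.85). In the basement membrane and elastic matrix list 19 of 21 were higher and none lower, and in the complement list 8 of 9 were higher and none lower, C3 among them (3.17-fold [2.81 to 3.58]). In the other lists, 15 of 19 growth factor genes were over 2-fold higher and 3 lower, 10 of 13 interferon and antigen presentation genes were higher and 0 lower, and 7 of 8 small proteoglycans were higher and 0 lower. Higher were also 8 of 12 genes common to FAPs, 7 of 9 lipoprotein and sterol genes and 4 of 4 Wnt modulators, with none lower in these lists. Of the BMP and TGF-beta family, 7 of 13 were higher and 1 lower, of the stem list 6 of 12 and 2, and of the pro-remodeling list 5 of 10 and 3. Adipocyte genes were higher in 1 of 8 and lower in 3, and preadipocyte regulators in 2 of 5 and 1. Apod was 20.9-fold (17.2 to 25.8) higher at day 7, whereas Gdf10 was 3.49-fold (2.74 to 4.44) lower and Pdgfra 1.29-fold (1.11 to 1.49) lower, within 2-fold. Wisp2 (6.21-fold [3.43 to 12.6]) and Sfrp4 (3.92-fold [2.64 to 6.06]) were higher at day 7, and their 11 and 26 day 2 counts each lay in 2 of the 30 members. Sfrp4 lay within 2-fold without cells that held markers of another class and after thinning to equal depth. Sfrp2, counted among the Wnt modulators above, also lay within 2-fold after thinning.

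Of the genes seen in at least 20% of the day 2 members, those furthest down at day 7 were Cxcl5, S100a9, Cxcl2, S100a4, Nr4a2 and Timp1. Cxcl5 and Cxcl2, chemoattractants of neutrophils, held 1584 (1456 to 1720.1) and 1671 (1539 to 1811) CPM on day 2, against 2.43 (0.662 to 6.22) and 67.4 (55.5 to 81.2) on day 7. Timp1, an inhibitor of metalloproteases, was 12.9-fold (11.5 to 14.4) lower, and the orphan nuclear receptor gene Nr4a2 13.3-fold (9.67 to 18.7) lower. S100a9 was a gene of 1 cell, as 205 of its 211 day 2 counts lay there. Across 13 chemokine genes compared, 6 were lower and 4 higher at day 7. The higher ones were the interferon-induced Cxcl9 (0 counts at day 2, at least 35.6-fold) and Cxcl10 (8.49-fold [4.26 to 19.8]), the eosinophil attractant Ccl11 (5.45-fold [3.74 to 8.27]) and Ccl8 (4.48-fold [2.39 to 9.47]).

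The adipogenic FAPs of day 2 were also set against the pro-remodeling FAPs of day 2, a comparison added after the data were seen. Of 4867 genes compared, 258 (5.3%) differed by more than 2-fold, 89 higher (1.83%) and 169 lower (3.47%). Gdf10 had the largest ratio, 80.8-fold (47.1 to 149), and Myoc, which encodes the secreted protein myocilin, was 7.45-fold (5.55 to 9.99) higher and Plac8 9.09-fold (6.82 to 12.1) higher. S100a9, Srgn and Arhgdib, genes of leukocytes, were also among the largest ratios, and here 314 of the 335 neutrophil marker counts of the members lay in 1 cell. Without that cell, which was left out after the data were seen, the log2 ratio was 0.783 for S100a9 and 0.861 for Myoc, both within 2-fold, 2.34 for Srgn, 2.92 for Arhgdib, 3.28 for Plac8 and 6.41 for Gdf10. Chemokines were the main group below, with 7 of 13 over 2-fold lower and 1 higher. Cxcl5 stood at 1584 against 7720.1 CPM, 4.87-fold (4.48 to 5.31) lower. The monocyte attractant Ccl2 was 3.4-fold (3.08 to 3.75) lower, with 1199 against 4072 CPM, and the neutrophil attractant Cxcl1 2.28-fold (2.13 to 2.45) lower, with 2345 against 5351 CPM. The one higher was Cxcl12, which retains stem and progenitor cells (2.01-fold [1.83 to 2.21]). At day 7 Ccl2 and Cxcl1 lay within 2-fold of pro-remodeling FAPs, at 300.0 against 195 and 528 against 429.7 CPM, and Cxcl5 had 4 counts left in the members. Of 13 chemokine genes compared at day 7, 2 were over 2-fold higher (Cxcl2 and Ccl7) and 1 lower (Il34), against 1.34% and 1.77% of all genes. With cells weighted equally, Cxcl2 and Ccl7 lay within 2-fold.

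The members varied widely among themselves at day 7. Ranked by their counts of a gene, 39 of the 232 cells held 50% of the Pdgfra counts and 48 held 50% of the counts of decorin (Dcn), a proteoglycan of all FAPs. For genes that were higher than in pro-remodeling FAPs the number was smaller, 16 cells for C3, 15 for Apod, 7 for Wisp2, 7 for Sfrp4 and 6 for Gdf10. Of the genes plotted, elastin (Eln) was held by the fewest, 4 cells. The counting intervals above do not cover this spread between cells.

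Apod counts were uneven as well. The 2 highest cells held 1464 and 1176 counts, 27.8% of the 9487 in all members and 11% and 11.5% of those cells' own UMIs, and both carried Pdgfra and Dcn. Without the 2 highest cells in each group, Apod stood at 4219 against 2047 CPM, a ratio of 2.06 in place of 2.54. The other marker ratios to pro-remodeling FAPs became 7.25 for Gdf10, 9.83 for Sfrp4 and 14.3 for Wisp2. Sfrp5, a Wnt-binding protein that adipocytes also make, was seen in 2 members with 63 counts, both without Pdgfra and each with 1 count of the muscle stem cell gene Pax7. Some chemokine counts were as narrow, since 2 cells held 54.9% of the Ccl2 counts and 1 cell 60 of 111 of those of Cxcl2.

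**Figure D4:**
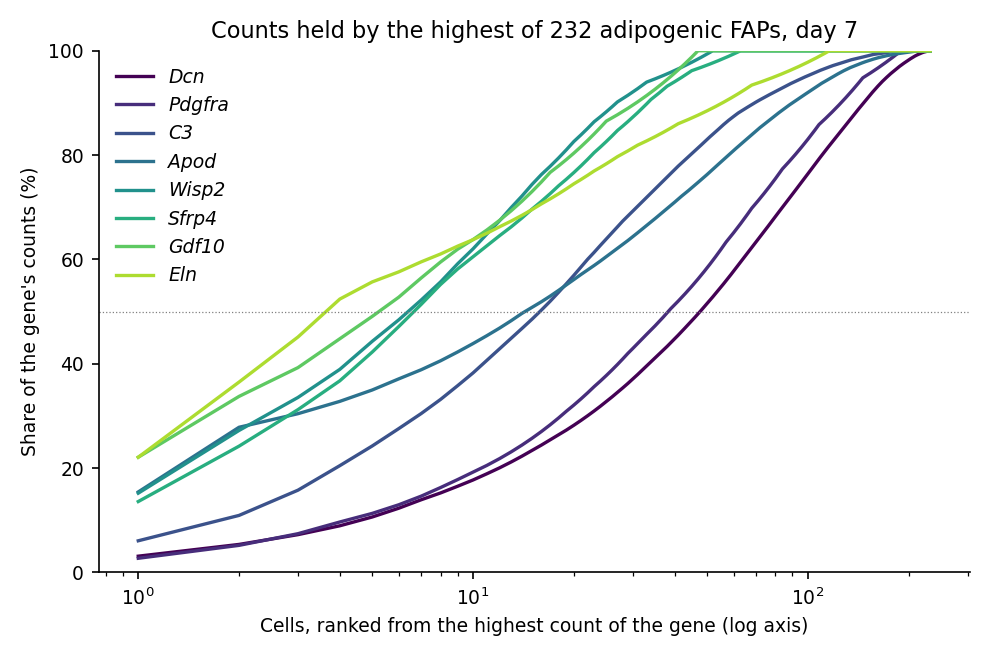
Share of a gene's counts (percent) held by the adipogenic FAPs of day 7, ranked from the cell with most counts, for 8 genes over 232 cells; the dotted line marks 50%. Dcn and Pdgfra reach the line after 48 and 39 cells, and Gdf10, Sfrp4, Wisp2 and Eln after 4 to 7.

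Spread was also read at equal depth for the genes with enough counts. The Fano factor, the variance of a gene's count over its mean, had a median of 1.29 over the 688 genes with a mean of at least 0.5 in the 187 thinned members, and was over 5 in 58 of them. Apod was highest at 91.5, against 21.7 in pro-remodeling FAPs, and without its 2 highest cells in each group the values were 28 and 11.9. The mean Apod count per thinned cell was 15.9 in the members and 7.06 in pro-remodeling FAPs. The factors were not adjusted for the mean, so that they do not compare genes or groups at like levels. Apod was followed by Gm42418 at 74.8 (65.5 without its 2 highest cells) and by the nuclear RNA Malat1 at 59.9 (49.8). Gm42418 is a locus that overlaps ribosomal RNA, so that its counts are uncertain. The next were gelsolin (Gsn, 37), Eln (22.2, and 3.58 without its 2 highest cells), Cxcl14 (21.7), the calcification inhibitor Mgp (19.1) and Col1a1 (17.6). Gsn and Mgp had larger values in pro-remodeling FAPs, 41.7 and 20.5.

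Members were also described by whether they carried Wisp2, Sfrp4 or Prg4. Cells were divided by whether a thinned count of Wisp2, Sfrp4 or Prg4 was seen, Prg4 being the gene of the lubricating proteoglycan lubricin; the 3 genes were chosen after their values were seen, and no test was made. Of 187 adipogenic FAPs, 79 held such a count, 42.2% (35.1 to 49.7), compared with 96 of 495 pro-remodeling FAPs, 19.4% (16 to 23.2), and 43 of 67 stem FAPs, 64.2% (51.5 to 75.5). Before thinning, the members with a count had a median of 9091 UMIs and those without 5263. Of 2765 genes with at least 30 thinned counts, 96 (3.47%) were over 2-fold higher in the members with a count and 144 (5.21%) in those without.

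In the members with a count, 5 of 8 complement genes, 5 of 10 stem list genes, 4 of 9 pro-remodeling list genes and 5 of 12 chemokine genes were over 2-fold higher. Of these lists, 1 chemokine and no other gene was over 2-fold lower. Without the 2 cells with most counts of each gene, which were left out after the data were seen, these counts were 5, 5, 3 and 5, and over all genes 92 were higher with a count and 109 without. Mmp3, a metalloprotease, was detected in 53.2% of the cells with and 15.7% of the cells without, at 7.54-fold (5.74 to 10.1) the level, and Serpina3n in 65.8% of the cells with and 19.4% of the cells without, at 6.05-fold (4.36 to 8.55). Lbp, the lipopolysaccharide-binding protein gene, which was also chosen after its values were seen, was 5.54-fold (4.5 to 6.88) higher. C3 (2.71-fold [2.38 to 3.09]), C4b (2.99-fold [2.14 to 4.22]), Pi16 (4.1-fold [3.21 to 5.29]), Gas6 (3.08-fold [2.25 to 4.24]) and Gdf10 (2.51-fold [1.37 to 4.73]) went the same way, as did the chemokines Ccl2 (10.9-fold [5.98 to 21.9]) and Ccl7 (7.81-fold [4.4 to 14.9]). Their ratios were 5.96 and 5.51 without the 2 cells with most counts of each, which all carried a count of Wisp2, Sfrp4 or Prg4. Comp, a matrix protein of tendon and cartilage, had the highest ratio among the genes plotted, 19.1-fold (8.95 to 48.9), or 11.8-fold without its 2 highest cells, on 44 of the 232 members with a count of it.

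In the members without a count, 6 of 17 collagens and 3 of 21 basement membrane and elastic matrix genes were over 2-fold higher, and 0 and 1 over 2-fold lower. Without the 2 highest cells of each gene it was 3 collagens and 3 of the other list. Igf2 was 10.2-fold higher in them and was detected in 3.8% of the cells with and 22.2% of the cells without, and Col15a1 was 3.95-fold higher, in 39.2% of the cells with and 89.8% of the cells without. H19 (3.36-fold), Mdk (3.24-fold), the cell cycle inhibitor Cdkn1c (3.04-fold) and Lpl (1.74-fold) were also higher without a count. Apod was 1.55-fold higher without a count, and 1.06 when its 2 highest cells, both without a count of Wisp2, Sfrp4 or Prg4, were left out. Pdgfra and Dcn differed little between both, with ratios of 1.05 and 1.03.

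**Figure D5:**
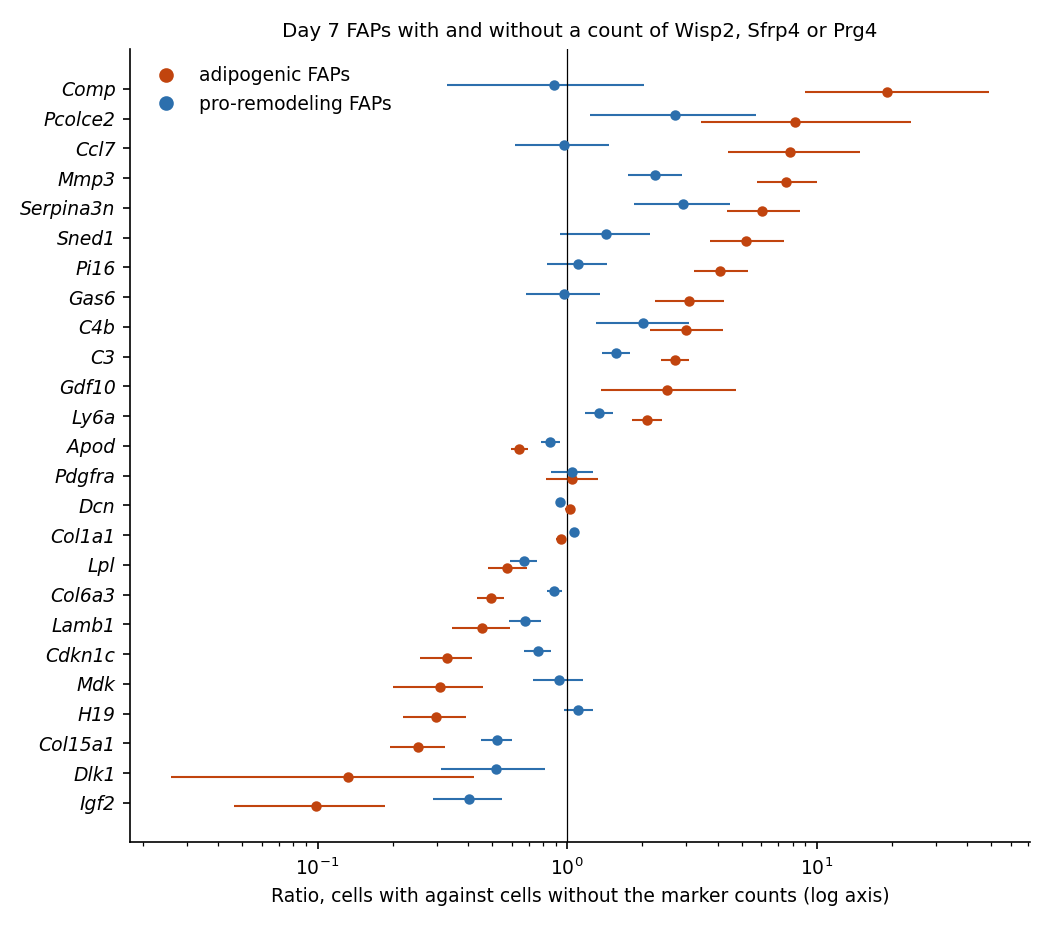
Ratio (log axis) of cells with to cells without a thinned count of Wisp2, Sfrp4 or Prg4 for 25 genes, in adipogenic and pro-remodeling FAPs of day 7, with 95% counting intervals. In adipogenic FAPs Comp, Ccl7 and Mmp3 lie to the high side, Pdgfra lies near 1 and Igf2 and Col15a1 lie to the low side.

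Markers of other cell types were read in the same cells, since droplets can hold more than 1 cell or free RNA. At day 7 the 8 endothelial markers summed to 60.7 CPM in the members and 60.3 in pro-remodeling FAPs, with Emcn at 0 in the members. The 8 macrophage markers summed to 162 and 131 CPM, and the 7 lymphocyte markers to 8 counts in all members. The 8 myogenic markers, Pax7 among them, summed to 61.9 CPM in the members and 33.4 in pro-remodeling FAPs. The 9 myofibre markers summed to 545 and 568 CPM, and were spread over most cells. Of the 8 smooth muscle and pericyte markers, which summed to 147 counts, 52 lay in 1 cell, and 1 cell held 33 of the 41 counts of the pericyte gene Rgs5. The tenocyte markers, which FAPs share in part, summed to 1016 CPM in adipogenic and 1316 in pro-remodeling FAPs, with Chad at 0 in both. Of the 4 tenocyte genes compared, Comp was over 2-fold higher in the members (6.75-fold [5.58 to 8.19]) and none was lower, with a median log2 ratio of 0.61. Against stem FAPs both tenocyte genes compared were higher, Comp 16.9-fold (8.09 to 42.3) and Thbs4 3.4-fold (2.86 to 4.08). At least 3 myofibre counts were seen in 141 of 232 members and at least 3 tenocyte counts in 101, and these lists were not used to leave cells out. By the macrophage, endothelial, smooth muscle and pericyte, lymphocyte, neutrophil, myogenic and neural lists, 9 of 30 members at day 2 and 47 of 232 at day 7 held 3 or more counts of another class; without such cells in either group, Wisp2, Sfrp4, Gdf10, Apod and C3 had log2 ratios to pro-remodeling FAPs of 4.34, 2.58, 2.5, 1.27 and 1.39 at day 7, against 3.95, 3.27, 3.1, 1.34 and 1.76 with all members. None of the members met the cut of 5 counts over 8 cell cycle genes.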

How the data were processed

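The deposited counts of unique molecular identifiers (UMIs) were made by the authors with Cell Ranger (3.1.0 per the submitters' processing notes, 3.0.1 in the file headers) on the mouse build mm10, as 27998 genes by called barcodes. The deposited estimated counts were made by the authors with SoupX, which takes free RNA out of each cell, and the cell type annotation was made by the authors in Seurat on a larger set of data.

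Cells were kept at 750 or more genes, 1000 or more transcripts and at most 30% mitochondrial transcripts on the SoupX values. Raw UMI counts were summed per annotation and library. Ratios carried exact conditional binomial 95% intervals, levels exact Poisson and shares Clopper-Pearson intervals, all for counting error only; UMIs limit but do not remove copies of one molecule. With 1 library per time point no p-value was computed. Genes with at least 100 counts in the 2 groups were compared and counted past 2-fold; a group at 0 was given a floor of 3 counts, over the group. For equal depth, cells were thinned to 3000 UMIs. Doublets were not called here. The authors report that they had taken putative doublets out of each dataset before merging and annotation. Left out in turn were cells with 3 or more counts of another class's markers, cells with 5 or more counts of 8 cell cycle genes, and cells with most counts of a gene. The cut on another class's markers was on raw counts and was not scaled to depth, so that deeper cells could meet it more easily.

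Named genes were the 5 markers, members of 29 gene lists, the 6 genes at each end of each comparison among those in at least 20% of the cells of the higher group (without mitochondrial, ribosomal protein, haemoglobin and myofibre genes) and the 8 with the largest Fano factor. A few results of these genes are not reported here. Members and lists were chosen with earlier results of these data known. Promoters were taken from RefSeq. The ratio script was tested on simulated counts with 200 genes changed 4-fold. Intervals held the true ratio in 96.1% of 7432 genes against pro-remodeling FAPs, 95.4% of 3265 against stem FAPs and 96.4% of 2922 between days. Of the changed genes compared, 100%, 100% and 99.4% were past 2-fold. The summed counts were drawn with counting error alone and no variation between cells. The test therefore covers how the intervals were computed, and cannot show how they hold for cells that vary. Python 3.11.15, numpy 2.4.6, scipy 1.17.1, pandas 2.3.3 and matplotlib 3.10.9 were used.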

Additional observations from a re-analysis of the deposited data

Results flagged for a closer look

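Signal of the markers also appeared in called barcodes that the annotation table does not hold, 1299 at day 2 and 1473 at day 7. Of the 680 and 477 of them that passed the limits on cells, 12 and 2 had 3 or more counts summed over Gdf10, Sfrp4 and Wisp2, compared with 11 of 30 and 61 of 232 adipogenic FAPs. The median depth of these 12 and 2 barcodes was 35669 and 23362 UMIs, and that of the 11 and 61 adipogenic FAPs with as many counts was 17762 and 12207. The authors report that putative doublets were taken out before annotation. Whether these 12 and 2 barcodes were among them was not tested.

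Of the genes compared with pro-remodeling FAPs on both days, Ccl7, Fst and Lbp lay past 2-fold in opposite directions. The log2 ratio was 1.24 at day 7 and -1.34 at day 2 for the chemokine Ccl7, 1.08 and -1.47 for the activin antagonist Fst, and 2.4 and -1.5 for Lbp, which binds lipopolysaccharide. With cells weighted equally the day 7 log2 ratios of Ccl7 and Fst were 0.71 and 0.95, within 2-fold. The difference between the days was not tested.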

How the results depend on the processing

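The share of FAPs annotated as adipogenic at day 2 was 19.6% without cells that held 3 or more counts of another class, and the shares over all kept cells were 0.944% at day 2 and 7.26% at day 7. Against pro-remodeling FAPs, 232 of 7461 genes were past 2-fold. The count was 1635 of 13496 over genes with at least 1 count, 126 of 5936 without cells holding markers of another class and 62 of 3059 after thinning. The whole interval lay past 2-fold in 93 of 7461. Against stem FAPs, 260 of 3270 became 2199 of 11558 with at least 1 count, 130 of 1048 after thinning and 126 of 3270 by whole intervals. Between days, 1020 of 2940 became 4271 of 11495, 406 of 861 and 539 of 2940 in the same order. Fewer counts were left after thinning, so that fewer genes were compared; the cause of the other shifts was not tested. SoupX values, weighting cells equally, median-of-ratios factors and no limits or stricter limits on cells kept the counts of genes past 2-fold within 1.5 times. So did leaving out the 2 highest cells of each gene, which was added after the data were seen. Leaving out cycling cells removed no cell from these comparisons, so that this setting could change nothing.

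The percentage of calls that were higher against pro-remodeling FAPs, 43.1, was 53.5 with median-of-ratios factors, 55.6 with at least 1 count, 71 by whole intervals and 28.3 without the 2 highest cells; between days it went from 54 to 66.3 without those cells, a setting that moved the median log2 ratio up by 0.22. Median-of-ratios factors moved all log2 ratios by 0.08 against pro-remodeling FAPs, 0.03 against stem FAPs and 0.08 between days. The 188 ratios of named genes had 1692 alternative values, of which 1366 lay within the counting interval and 326 outside it. Of the 1366, 188 came from leaving out cycling cells, which removed no cell. Of the ratios past 2-fold, 0 changed sign. Of the genes named in the text that were past 2-fold, 36 of 61 against pro-remodeling FAPs at day 7 were past it under each of 9 alternatives. The numbers were 41 of 49 against stem FAPs and 59 of 72 between days. The comparison with pro-remodeling FAPs at day 2 was not put through these alternatives. No paired analysis was possible because each time point has 1 library and no replicate. Depth limited genes near the floor, such as the adipocyte genes at 0, and the day 2 comparisons, which rest on 30 cells.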
